A study of Mus musculus with 6 samples.

Results

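The E2F transcription factors and the retinoblastoma proteins that bind them were followed in mouse muscle satellite cells before and after growth in culture. The genes were taken by name from the platform annotation, through probe sets given to exactly 1 gene. They were the activators E2f1, E2f2 and E2f3, the repressors E2f4 and E2f6, the atypical factors E2f7 and E2f8, and the pocket proteins Rb1, Rbl1 and Rbl2, 10 genes of the 19938 that had a value. They were measured by 11 probe sets. E2f3 had 2 of these, and the one with the higher mean over the 6 arrays was used for it. Satellite cells are the stem cells of skeletal muscle and rest outside the cell cycle in uninjured tissue. The fresh group was 3 arrays of RNA from cells sorted out of hind-limb, abdominal and triceps muscle, with beta-1 integrin and CXCR4 on the surface and without CD11b, CD31, CD45, Sca1 and Ter119. The cultured group was 3 arrays of such cells after 5 days on collagen and laminin in F10 medium with 20% horse serum and 5 ng/ml of basic fibroblast growth factor each day. All animals were C57BL/6J mice 2 months old, with no genetic change or treatment in the labels. The groups differ by culture in the labels, which give no batch or date. The labels mention 3 mice but do not link an array to a mouse. P-values therefore measure the spread between these samples, some of which may be technical.

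E2F factors bind the promoters of genes for DNA synthesis and cell division, most of them as dimers with a DP protein. The retinoblastoma, or pocket, proteins hold them inactive in resting cells, and phosphorylation by cyclin D and cyclin E kinases releases them. In quiescence Rbl2, with E2f4, a DP protein and the MuvB core, forms the DREAM complex, which keeps cell cycle genes off. E2f7 and E2f8 bind DNA without a DP protein or a pocket protein and repress E2F targets during S phase, and both are themselves E2F targets. In muscle, Rb1 is known for the exit of differentiating myoblasts from the cell cycle.

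The promoters of the genes are shown because several of them are known targets of E2F factors themselves, so that letters bound by E2F may be looked for beside each expression value. RefSeq windows of GRCm38.p6, 250 bases before to 50 after a start site, were matched for 8 of the 10 genes. E2f4 and Rb1 were not matched. The 8 genes had 10 windows, since E2f2 and E2f3 had 2 start sites each. Capitals mark either an E2F site, searched as TTTCCCGC, TTTCGCGC, TTTGCCGC or TTTGGCGC, or a cell cycle homology region (CHR, the element bound by the MuvB core), searched as TTTGAA or TTCGAA, on both strands. The windows shown are those of E2f8, the gene that passed the test, of its closest relative E2f7, and of E2f3, E2f2 and Rbl1, which hold E2F letters. Each is written 5′ to 3′ on the strand of its gene.
E2f8, chr7:48881547-48881846, minus strand: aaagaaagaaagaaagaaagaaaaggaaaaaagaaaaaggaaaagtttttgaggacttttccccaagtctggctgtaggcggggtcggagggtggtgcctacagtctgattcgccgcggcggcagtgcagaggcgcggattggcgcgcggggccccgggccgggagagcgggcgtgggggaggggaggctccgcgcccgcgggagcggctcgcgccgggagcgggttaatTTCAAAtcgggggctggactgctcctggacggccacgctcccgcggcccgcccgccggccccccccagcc
E2f7, chr10:110745189-110745488, plus strand: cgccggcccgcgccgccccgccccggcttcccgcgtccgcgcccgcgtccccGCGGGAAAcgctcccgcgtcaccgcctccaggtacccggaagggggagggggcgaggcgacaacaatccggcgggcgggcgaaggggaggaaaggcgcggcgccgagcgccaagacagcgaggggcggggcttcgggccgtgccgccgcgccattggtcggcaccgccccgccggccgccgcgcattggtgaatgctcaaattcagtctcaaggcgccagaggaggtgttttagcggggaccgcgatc
E2f3, chr13:29986014-29986313, minus strand: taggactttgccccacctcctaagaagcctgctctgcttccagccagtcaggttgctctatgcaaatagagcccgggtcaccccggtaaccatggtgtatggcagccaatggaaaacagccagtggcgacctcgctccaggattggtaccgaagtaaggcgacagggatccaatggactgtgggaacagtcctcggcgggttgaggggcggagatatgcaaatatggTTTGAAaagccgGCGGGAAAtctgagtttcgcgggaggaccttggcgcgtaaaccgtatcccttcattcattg
E2f2, chr4:136172024-136172323, plus strand: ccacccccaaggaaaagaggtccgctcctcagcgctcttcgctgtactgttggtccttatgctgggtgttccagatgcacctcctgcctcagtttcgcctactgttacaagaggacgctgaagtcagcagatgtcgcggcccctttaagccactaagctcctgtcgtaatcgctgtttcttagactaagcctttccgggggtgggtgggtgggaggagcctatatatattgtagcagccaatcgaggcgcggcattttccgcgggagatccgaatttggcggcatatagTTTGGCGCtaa
Rbl1, chr2:157204485-157204784, minus strand: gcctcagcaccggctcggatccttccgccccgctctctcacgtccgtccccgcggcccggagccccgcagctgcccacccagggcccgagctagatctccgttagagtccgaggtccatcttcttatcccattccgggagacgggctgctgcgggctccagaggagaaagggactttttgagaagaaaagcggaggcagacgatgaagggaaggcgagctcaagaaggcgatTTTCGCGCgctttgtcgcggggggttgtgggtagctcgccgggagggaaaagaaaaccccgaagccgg
E2F letters stood in 4 of the 10 windows, 1 each for E2f2, E2f3, E2f7 and Rbl1, against 2.3% of all 32851 windows. CHR letters stood in 4 windows, those of E2f3, E2f8, Rbl2 and the second start of E2f2, against 19.2% of all windows. In E2f8 the CHR letters began 20 bases before the start site on the opposite strand, and no E2F letters were found. In E2f3 CHR letters began 23 bases and E2F letters 11 bases before the start, and such a window with both was 1 of 10 here and 0.3% of all. Rbl1 had TTTCGCGC beginning 18 bases before its start, and E2f7 had TTTCCCGC on the opposite strand 198 bases before it. The E2f2 match lay after the start site, at base 290 of the window. A match describes letters only. Windows without one say nothing of a factor's binding, or of letters outside the window, such as at a start site that was not matched.

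Levels are the deposited log2 values, and a difference of 1 is a 2-fold change. Background was set from 1194 genes of smell and pheromone receptors (Olfr, Or and Vmn), whose 95th percentile was 3.16 over the fresh and 3.23 over the cultured group means. All 11 satellite cell markers examined were above background in the fresh and 10 in the cultured cells, with 7 lower in culture, among them Pax7 at a mean of 6.47 in fresh and 5.14 in cultured cells. CD31 (Pecam1), CD45 (Ptprc) and CD11b (Itgam), used to exclude cells in the sort, averaged 2.50, 2.27 and 2.36 in fresh cells, all below background. Of 6 endothelial and 5 white blood cell markers measured, 1 and 2 were above background in fresh cells. These were Tek at 3.34, which was lower in culture by the test, and Cd68 at 3.74 and Cd3e at 3.72. The fibro-adipogenic genes Dcn and Dpt averaged 7.39 and 7.44 in fresh and 2.87 and 2.42 in cultured cells, while the other 3 measured of these 5 markers did not pass: Pdgfra averaged 3.35 and 3.62, Col1a1 5.25 and 5.12, and Lum, within background in both groups, 2.78 and 2.15. The mean of the 5 ran from 4.90 to 5.58 on the fresh and from 3.16 to 3.31 on the cultured arrays, and its part in the results was not tested. Tendon cell markers averaged from 3.41 to 5.27 on the fresh arrays, highest on fresh replicate 1, and from 3.81 to 3.96 on the cultured ones. Muscle fibre markers averaged from 4.43 to 4.62 on the fresh and from 4.43 to 5.33 on the cultured arrays, highest on cultured replicate 3. The part of these markers was not tested either. The cultured arrays differed for bright genes: the 49 genes averaging over 11 stood, at the median, 3.33 and 2.87 below the fresh mean on cultured replicates 2 and 3 (-3.33 and -2.87) and at -0.09 on cultured replicate 1. Among the 14169 genes with a mean from 2.5 to 5.5, the range that holds the 10 family genes, this median was 0.10, 0.00 and 0.07 on cultured replicates 1, 2 and 3.

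Of the 10 genes, 5 were above background in the fresh and 7 in the cultured group means. The means of E2f2, E2f3, E2f4, E2f6 and E2f7 were above background in both groups, and those of E2f1 and E2f8 in the cultured cells alone. Rb1, Rbl1 and Rbl2 averaged within background in both groups, where a change in RNA may not be measurable. E2f2, E2f4 and E2f7 were above each array's own background on all 6 arrays. E2f8 was higher in the cultured cells by the test, and the other 9 genes did not pass it. The test was limma with Benjamini-Hochberg adjustment over all 19938 genes at an adjusted p of 0.05. One gene of 10 therefore passed, where 4.32% of all genes did and 0.953% of all genes were higher. At an unadjusted p of 0.05, 4 of the 10 genes passed (E2f4, E2f8, Rb1 and Rbl1), where 17.6% of all genes did. The 3 cultured values lay above the 3 fresh values for E2f6, E2f8 and Rbl1, 3 of the 10 genes, where 12.9% of all genes did, and below them for 0 of the 10, where 10.3% of all genes did. The median log2 fold change was 0.26 over the 10 genes and 0.04 over all genes.

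**Figure D1:**
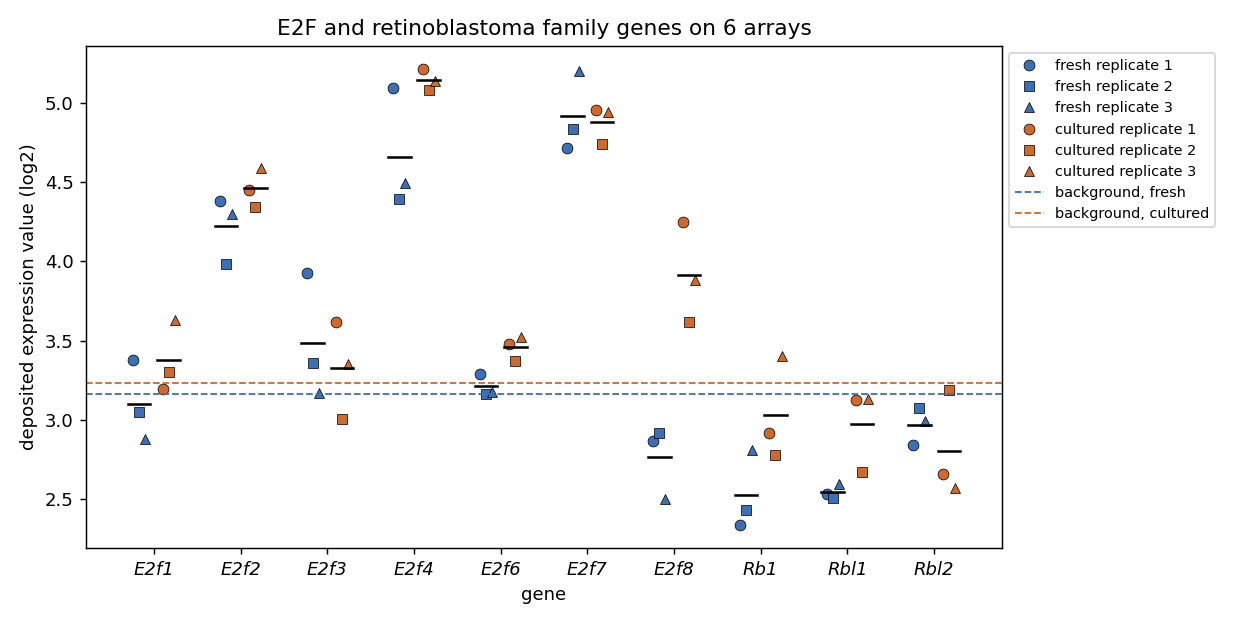
Deposited log2 expression values of the 10 genes on each array, fresh in blue and cultured in orange, with the replicate number as the marker shape, the group mean as a bar and the background of each group as a dashed line. E2f8 moved from a fresh mean of 2.76, under background, to a cultured mean of 3.92, while the arrays of E2f7 overlapped.

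E2f8, an atypical repressor, rose in culture. It was at 2.87, 2.92 and 2.50 on fresh replicates 1, 2 and 3 and at 4.25, 3.62 and 3.88 on the cultured ones. Each cultured array lay above each fresh array, and cultured replicate 1 was the highest. The group means were 2.76 ± 0.23 (SD, n = 3) and 3.92 ± 0.32, a log2 fold change of 1.15 ± 0.20 (SE) with an adjusted p of 0.0182. The 95% interval ran from 0.69 to 1.62, and the fold change was 2.22. Since the fresh mean was within background, the rise above the background level itself was 0.76 on the log2 scale. The call was lost without fresh replicate 1, 2 or 3 or cultured replicate 3, at adjusted p of 0.0516, 0.0573, 0.0808 and 0.0819. The log2 fold change stayed between 0.99 and 1.30 over 14 other settings. Leaving out these arrays also lowered the number of calls over all genes, from 861 to 698, 478, 471 and 448. In such bulk samples, a larger share of dividing cells and more E2f8 RNA per cell cannot be told apart.

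E2f7, which often acts beside E2f8 on the same targets, did not pass. It was at 4.72, 4.83 and 5.20 on the fresh and 4.96, 4.74 and 4.94 on the cultured arrays. The groups overlapped fully, with all cultured values inside the fresh range. The log2 fold change was -0.04 with a 95% interval from -0.43 to 0.35 and an adjusted p of 0.933, so that a change of 1, in either direction, lay outside the interval. Its sign turned under 3 of the 14 other settings. The interval of E2f8 lay wholly above that of E2f7, but the difference between the 2 genes was not tested.

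None of the activator E2Fs, which drive entry into S phase when free of Rb1, passed the test. E2f1 was at 3.38, 3.05 and 2.88 on the fresh and 3.20, 3.30 and 3.63 on the cultured arrays, and the groups overlapped around the background level. Its log2 fold change was 0.27 (95% interval -0.15 to 0.70, adjusted p 0.507). E2f2 was at 4.38, 3.98 and 4.30 in fresh and 4.45, 4.34 and 4.59 in cultured cells, where the lowest cultured array was below the highest fresh array. Its log2 fold change was 0.24 (-0.12 to 0.60, adjusted p 0.491). E2f3, which encodes both a long and a short protein form, was at 3.93, 3.36 and 3.17 in fresh and 3.62, 3.01 and 3.35 in cultured cells. Replicate spread was wide in both groups, and fresh replicate 1 was the highest array. The log2 fold change of E2f3 was -0.16 (-0.71 to 0.40, adjusted p 0.792). The further probe set of E2f3 averaged 2.65 in fresh and 3.00 in cultured cells, both within background, with a log2 fold change of 0.34 and an adjusted p of 0.432, so that the 2 probe sets differed in sign. No activator reached a 2-fold change at the edge of its interval.

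E2f4, the main E2F of resting cells and a partner of Rbl2 and Rbl1, did not pass. It was at 5.09, 4.39 and 4.49 on the fresh and 5.21, 5.08 and 5.14 on the cultured arrays. Fresh replicate 1 lay among the cultured arrays, and the other fresh arrays were lower. The log2 fold change was 0.48 (95% interval 0.02 to 0.95), with an unadjusted p of 0.0422 and an adjusted p of 0.261. Without fresh replicate 1 the difference was 0.70 with an adjusted p of 0.0611, the lowest over 14 other settings. Without fresh replicate 2 or 3 it was 0.35 and 0.40, with adjusted p of 0.496 and 0.524. E2f6 lacks the pocket protein site and represses as part of a Polycomb complex, PRC1.6. It was at 3.29, 3.16 and 3.17 on the fresh and 3.48, 3.37 and 3.52 on the cultured arrays. The groups did not overlap, but the difference was small at 0.25 (-0.05 to 0.54, adjusted p 0.377) and both means were close above background.

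The pocket proteins lay near or under background, and none passed the test. Rb1, the retinoblastoma protein, was at 2.33, 2.43 and 2.81 on the fresh and 2.92, 2.78 and 3.40 on the cultured arrays. Its highest fresh array exceeded its lowest cultured array, and 1 of the 6 values, that of cultured replicate 3, was above background. The log2 fold change was 0.51 (95% interval 0.02 to 0.99), with an unadjusted p of 0.0417 and an adjusted p of 0.259. Rbl1, known as p107 and a product of cycling cells, was at 2.53, 2.51 and 2.59 in fresh and 3.13, 2.67 and 3.13 in cultured cells. Its groups did not overlap, cultured replicate 2 lay close to the fresh arrays, and all 6 values were within background. Rbl1 had a log2 fold change of 0.43 (0.05 to 0.81, adjusted p 0.222). Rbl2, known as p130 and the pocket protein of quiescence, was at 2.84, 3.07 and 2.99 in fresh and 2.66, 3.19 and 2.57 in cultured cells. On cultured replicate 2 it exceeded all fresh arrays, and on the other cultured arrays it was below them. Its log2 fold change was -0.16 (-0.60 to 0.28, adjusted p 0.724). These 3 values describe probe sets at the array's floor and set no level of the proteins.

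**Figure D2:**
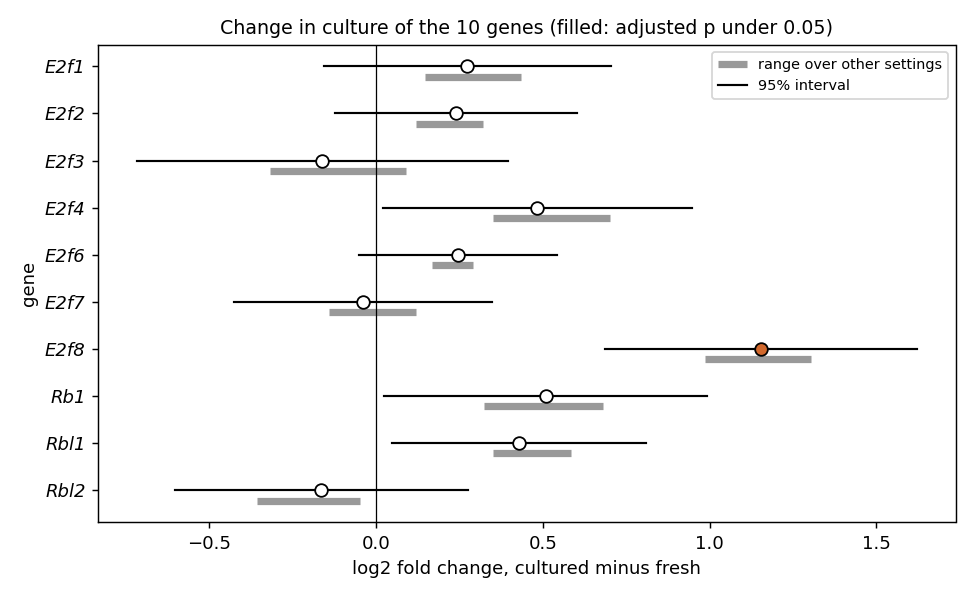
Log2 fold change of each gene, cultured minus fresh, as a circle (filled where the adjusted p is under 0.05) with its 95% interval as a line and the range over the other settings as a grey bar. The interval of E2f8, from 0.69 to 1.62, was the only 1 wholly above 0.5, and those of 6 genes included 0.

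The partners of the E2F proteins were looked at from a list of DP proteins, MuvB subunits and the late factors that join them. Of 11 measured, none passed limma's adjusted p of 0.05, with 2 higher and none lower at an unadjusted p of 0.05. At that unadjusted p, 17.6% of all genes passed in either direction. Tfdp1, the DP protein that dimerises with E2f1 to E2f6, was at 6.14, 6.40 and 5.52 on the fresh and 7.85, 6.81 and 6.84 on the cultured arrays. Its groups did not overlap, and the log2 fold change was 1.14 with an adjusted p of 0.113. The MuvB partner Foxm1, which drives mitotic genes, was at 0.47 (adjusted p 0.185), the other DP gene Tfdp2 at -0.30 (0.391) and the MuvB partner Mybl2 at 0.29 (0.350).

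The kinases that phosphorylate pocket proteins and their inhibitors had 14 measured genes, of which 1 fell and none rose, where 3.37% of all genes fell and 0.953% rose. Cdkn1b, the p27 inhibitor of cyclin E kinase, was at 7.75, 6.71 and 8.14 on the fresh and 4.53, 4.66 and 4.53 on the cultured arrays. Its log2 fold change was -2.96 ± 0.33 (SE), adjusted p 0.00241, and ranged from -3.37 to -1.60 over 14 other settings, all of which kept the call. The value of -1.60 came from the mean of all its probe sets, so that these differed in the size of the change. Ccnd1, the cyclin D that starts the phosphorylation of Rb1, was at 5.24, 5.68 and 5.18 on the fresh and 7.12, 6.01 and 6.68 on the cultured arrays. Its log2 fold change of 1.23 missed the threshold at an adjusted p of 0.0577. Ccne2, a cyclin E, had a difference of 0.91 (adjusted p 0.204) and the cyclin D kinase Cdk6 of 0.83 (adjusted p 0.0772), both from fresh levels within background. The list median was 0.40. The count was 6 after a further quantile normalization, 5 with cyclic loess and 4 without cultured replicate 2.

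The genes that E2F factors switch on at the G1/S transition rose in part. Of 37 measured, 3 rose and none fell with limma, where 0.953% of all genes rose and 3.37% fell. At an unadjusted p of 0.05, 23 were higher and 2 lower, where 17.6% of all genes passed in either direction. In 20 the cultured arrays lay above the fresh ones, where 12.9% of all genes did. At least 1 group mean was above background for 31 of the 37. The 3 that rose with limma were Rrm2, a subunit of the enzyme that makes deoxyribonucleotides (2.79, adjusted p 0.00455), the S phase cyclin Ccna2 (1.93, adjusted p 0.00439) and the helicase subunit Mcm6 (1.27, adjusted p 0.0404). Rrm2 was at 3.00, 3.66 and 3.81 on the fresh and 7.04, 5.67 and 6.14 on the cultured arrays. Ccna2 was within background in fresh cells at 2.98, and its rise above that level was 1.75. Rrm1, the other subunit of that enzyme (1.82, adjusted p 0.110), and the chromatin remodeller Hells (1.47, adjusted p 0.0612) did not pass. Both were within background in fresh cells, and their cultured means stood 1.51 and 0.66 above that level. Rrm2 and Ccna2 kept their calls in all 14 other settings, and Mcm6 lost its call when any 1 fresh array or cultured replicate 3 was left out, with a highest adjusted p of 0.147. Pcna, the replication clamp, was at 9.03, 9.00 and 9.17 on the fresh and 9.07, 7.31 and 7.52 on the cultured arrays, named here after its values were seen, and its difference of -1.10 missed the threshold (adjusted p 0.220). These values lie above the range from 2.5 to 5.5 in which the cultured arrays had similar medians. Ccne1 and Ccne2 were counted both here and among the kinases and inhibitors. The median of the G1/S list was 0.59. The count was 12 after a further quantile normalization, 10 with cyclic loess, 8 with cultured replicate 1 left out and 7 with cultured replicate 2 left out.

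The G2 and mitosis genes that the DREAM complex represses in resting cells were higher in culture in part. Of 29 measured, 11 rose and none fell with limma, where 0.953% of all genes rose, a difference in frequency that was not tested. All 29 had a positive difference, with a median of 0.91, where the median over all genes was 0.04. In 25 of the 29 the cultured arrays lay above the fresh ones, where 12.9% of all genes did. At least 1 group mean was above background for 19 of the 29, and in the rest a change may not be measurable. Ttk, which passed the test, averaged 2.03 in fresh and 2.85 in cultured cells, within background on all 6 arrays. Birc5, the survivin gene, was at 3.56, 3.70 and 3.44 on the fresh and 7.03, 5.83 and 5.11 on the cultured arrays, a log2 fold change of 2.42 with an adjusted p of 0.0186. The mitotic kinase Cdk1 was at 3.50, 3.71 and 3.87 on the fresh and 6.91, 5.03 and 5.49 on the cultured arrays, a log2 fold change of 2.12 with an adjusted p of 0.0366. Ube2c, a ubiquitin-conjugating enzyme of mitotic exit, rose by 1.94 with an adjusted p of 0.00294 and kept its call in all 14 other settings. Top2a, which untangles chromosomes, was at 1.73 with an adjusted p of 0.0680. The count of 11 fell to 5 without fresh replicate 1, 2 without fresh replicate 2, 2 without fresh replicate 3 and 5 without cultured replicate 3. The number of calls over all genes fell in these settings as well. Birc5 lost its call without any 1 fresh array, with a highest adjusted p of 0.0921, and Cdk1 without those or cultured replicate 3, with a highest of 0.128. Earlier results of these data had shown mitotic and S phase genes higher in culture, so that the direction of both lists is not independent evidence.

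**Figure D3:**
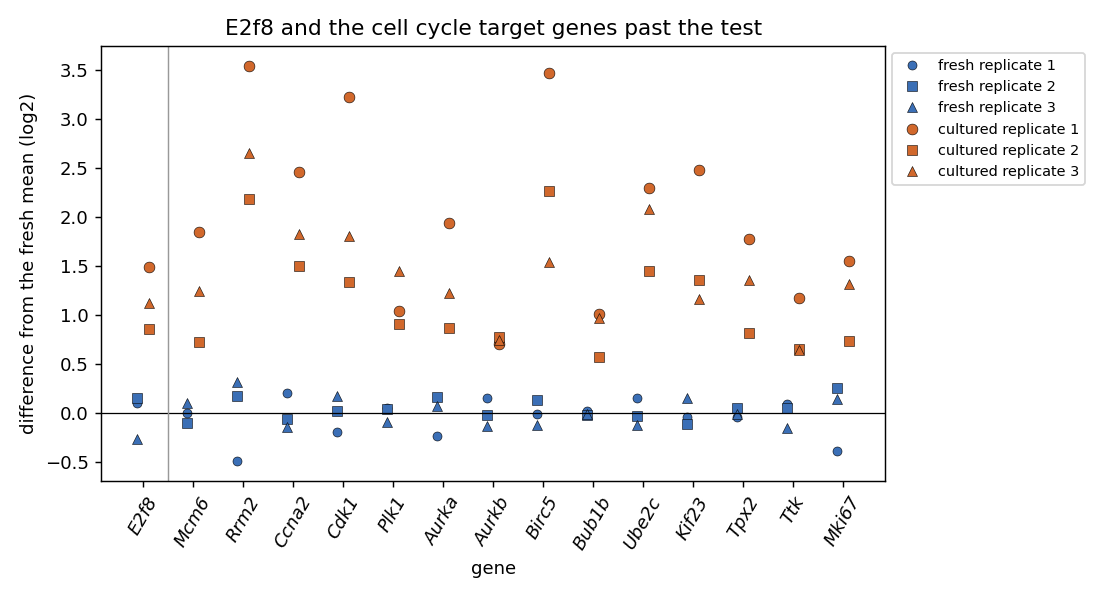
Difference of each array from the fresh mean, in log2 units, for E2f8 and for the 3 G1/S and 11 mitosis genes that passed the test, fresh arrays in blue and cultured arrays in orange. Every cultured array lay above every fresh array for each gene shown, E2f8 and Rrm2 among them. The genes were chosen by the test on these same arrays, so this separation is no further evidence.

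Genes that work with E2f6 and with the pocket proteins on chromatin gave 1 call in each of 2 lists, where 3.37% of all genes fell, so that nothing is read from the counts. Of 12 measured partners of E2f6 in PRC1.6, Rybp, which stimulates ubiquitination of histone H2A, fell by 1.27 log2 units (adjusted p 0.0377), and none rose. Rnf2, the ubiquitin ligase of the complex, was at -1.23 (adjusted p 0.173), the heterochromatin protein Cbx3 at 1.02 (adjusted p 0.147) and the DNA-binding partner Max at -0.90 (adjusted p 0.177). The list median was -0.11. Rybp lost its call when any 1 fresh array or cultured replicate 3 was left out (highest adjusted p 0.161), with cyclic loess at 0.0962 and after a further quantile normalization at 0.221. Of 4 germline genes held off by E2f6, none passed, none had an unadjusted p under 0.05 with limma, and the differences lay between -0.02 and 0.20; Stag3, Smc1b and Slc25a31 were within background and Tuba3a averaged 4.09 in fresh and 4.22 in cultured cells.

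Of 11 measured chromatin partners of the pocket proteins, Kdm5a, a histone H3 lysine demethylase found as a binding protein of Rb1, fell by 0.69 log2 units (adjusted p 0.0465), and none rose. It was at 4.44, 4.64 and 4.25 on the fresh and 3.67, 3.84 and 3.77 on the cultured arrays. The groups did not overlap, but the call lay at the threshold and was lost without any 1 of the 6 arrays, with a highest adjusted p of 0.163. The maintenance methyltransferase Dnmt1 was at 0.68 (adjusted p 0.129), the histone-binding protein Rbbp7 at -0.61 (adjusted p 0.284) and the remodelling ATPase Smarca4 at 0.53 (adjusted p 0.326). The list median was 0.11, and it turned to -0.19 without cultured replicate 1, -0.09 without fresh replicate 1 and -0.04 without fresh replicate 3.

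Among 6 measured genes that degrade E2F and pocket proteins or feed back on them, none passed limma's test, with 3 higher and none lower at an unadjusted p of 0.05. The share of all genes at that unadjusted p was 17.6% in either direction. The 3 were Fbxo5, Skp2 and Ccnf, and Ccnf was also counted among the mitosis genes. Ccnf was within background on all 6 arrays. Fbxo5, an inhibitor of the anaphase-promoting complex, was at 2.61, 2.10 and 2.75 on the fresh and 6.12, 3.56 and 4.15 on the cultured arrays, a log2 fold change of 2.13 with an adjusted p of 0.0996. Its fresh mean was within background, and the cultured mean stood 1.46 above that level. The cultured arrays lay above the fresh ones but differed widely among themselves. Mdm2 was at 0.70 (adjusted p 0.330), Fzr1 at 0.45 (0.522) and Skp2, which marks Cdkn1b for destruction, at 0.44 (0.273). Of 6 measured apoptosis genes linked to E2f1, none passed. At an unadjusted p of 0.05, none was higher and 2 were lower, where 17.6% of all genes passed in either direction. Pmaip1 was at -0.59 (adjusted p 0.0828), Bcl2l11 at -0.48 (0.123), the caspase activator Apaf1 at 0.37 (0.397) and Ppp1r13b at 0.19 (0.567).

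**Figure D4:**
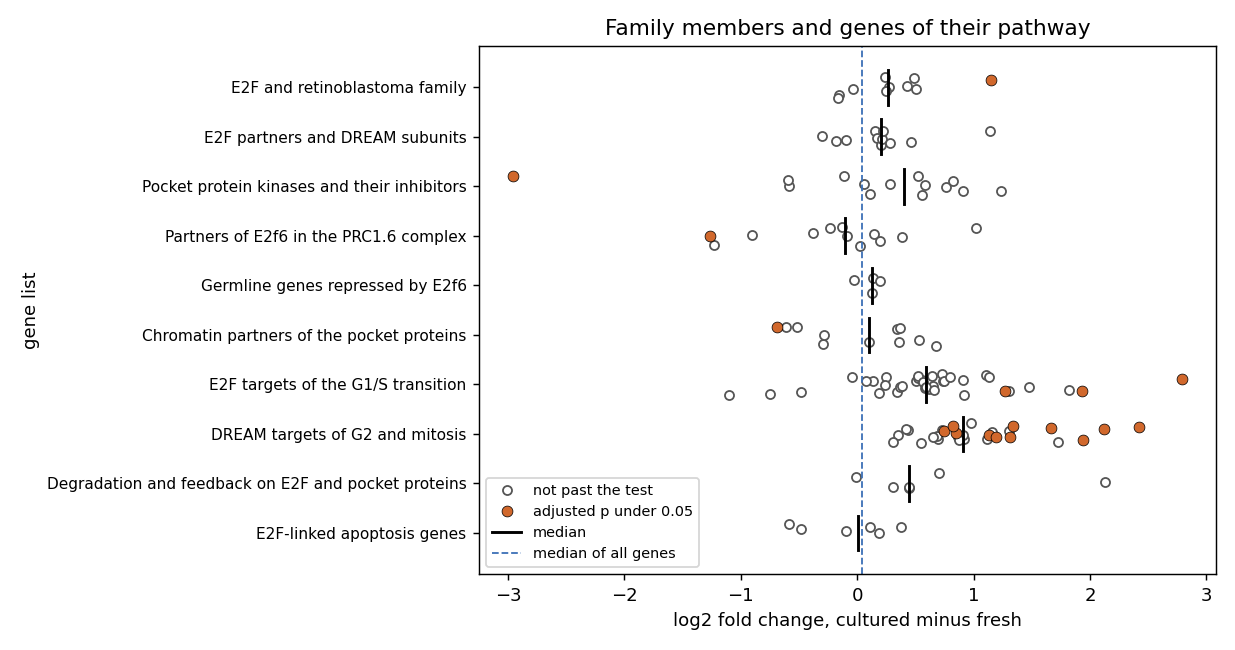
Log2 fold change, cultured minus fresh, of each measured gene in the family and in the 9 pathway lists, with filled circles for an adjusted p under 0.05, black bars for list medians and a dashed line for the median of all genes at 0.04. The list medians were highest for the mitosis genes at 0.91 and the G1/S targets at 0.59, and the family lay at 0.26.

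The 3 genes whose values over the 6 arrays most resembled those of E2f8, after each gene was centred on its own mean, were H2bc14, Mtap and Ptma-ps2. Their root mean square differences from E2f8 were 0.11, 0.11 and 0.12 on the log2 scale. H2bc14, a histone H2B gene, was at 6.33, 6.36 and 6.09 on the fresh and 7.81, 7.04 and 7.14 on the cultured arrays, with a log2 fold change of 1.07. Mtap, an enzyme of methionine salvage, was at 3.49, 3.57 and 3.18 on the fresh and 4.88, 4.33 and 4.26 on the cultured arrays. Ptma-ps2, a processed copy of the prothymosin alpha gene whose probes may also read the parent gene, had a log2 fold change of 1.11. With 6 arrays in 2 groups, any gene that differed between the groups by about the same amount scores as alike.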

How the data were processed

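RNA from fresh and cultured satellite cells was labelled with biotin by an Affymetrix whole-transcript kit and read on arrays, per the labels' protocols. The authors deposited log2 expression values of 35556 probe sets; per the submitters' processing notes they used RMA and the package oligo, while versions, annotation and build were not given in the sources used here. RMA compresses differences near background. Of the probe sets, 21789 had 1 gene in the platform annotation, 1621 had several genes and stay unnamed, and the annotation lists none for 12146. Symbols were updated through GRCm38.p6 gene identifiers, and the probe set with the highest mean was kept for each of 19938 genes.

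Groups were compared with limma 3.58.1 in R 4.3.3 (lmFit and eBayes, no filter, no covariate), tested on simulated data. There the fit called 26 of 50 genes given a log2 change of 1, so a 2-fold change may be missed. Figures and motif searches used Python 3.11.15. The number of arrays, 3 a group, limits the precision. The labels do not say that a replicate number marks a shared mouse, so no pairing was used in the main fit. Correlations of deviations from the group means were -0.09, -0.14 and 0.03 for same-numbered arrays. With 3 arrays a group, these cannot show whether the arrays are paired. The family, the gene lists and the rule for named genes (all 10 genes, the 4 list genes with the largest absolute differences, called genes where 6 or fewer, and the 3 nearest patterns) were chosen with earlier results of these data known. Other settings were a replicate block, quantile and cyclic loess normalization, a filter on dim genes, a trended and robust prior, array weights for each array or each group, the mean of all probe sets and leaving out each array.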

Additional observations from a re-analysis of the deposited data

How the results depend on the processing

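Of the 10 genes, 1 was called, and this stayed so with a replicate block, both further normalizations, the filter on dim genes, the trended and robust prior, both kinds of array weights, and the mean of all probe sets. Leaving out 1 array gave 0 to 1 called. The difference of E2f3 turned to 0.091 with the mean of its probe sets and ran from -0.32 to 0.062 when 1 array was left out, positive without fresh replicate 1. That of E2f7 turned to 0.12 after quantile normalization and ran from -0.14 to 0.10 when 1 array was left out, positive without fresh replicate 3 (0.10) and cultured replicate 2 (0.031). The other 8 genes kept their direction in all settings that tested them; the filter removed Rb1, Rbl1 and Rbl2. Over all genes, 861 were called, 1595 after quantile normalization, 1515 with cyclic loess, 1742 with array weights, and 448 to 1517 when 1 array was left out. The share of these that was higher in culture was 22.1%, 43.8% after quantile normalization and 32.9% with cyclic loess. The replicate block gave 662 genes, and 6 in place of 11 mitosis genes; it ended the calls of Rybp (adjusted p 0.0665), Kdm5a (0.0994) and Cdk1 (0.0573), and E2f8 kept its call at 0.0415. The mitosis count was 17 under both normalizations and 20 with array weights. The G1/S count of 3 became 13 with array weights and 6 with the trended prior, and the count of kinases and inhibitors rose from 1 to 5 with array weights and 2 with the trended prior, with the filter and without cultured replicate 1. The chromatin list, at 1, had 3 after quantile normalization, 2 with array weights and 0 with the trended prior and when any fresh array or cultured replicate 3 was left out, and the PRC1.6 list 2 without cultured replicate 1. Lists with no call gained at most 2. The causes were not tested. Signal within background in at least 1 group limits E2f1, E2f8, Rb1, Rbl1 and Rbl2. E2f3 and E2f6, with both group means above background, were above each array's own background on 4 and 3 of the 6 arrays.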

Other observations

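The order of the cultured arrays was counted in each list. Cultured replicate 1 was the highest and cultured replicate 2 the lowest of the 3 for E2f8 and for 20 of 37 G1/S targets and 18 of 29 mitosis genes. The same order was found for 8 of 11 chromatin partners of the pocket proteins, 4 of 6 apoptosis genes, 7 of 14 kinases and inhibitors, 3 of 6 degradation genes, 4 of 11 E2F partners, 4 of 12 PRC1.6 partners and 1 of 4 germline genes. Over all genes this order was found for 28.7%, and for 39.8% of the genes above background in either group. In the family it was found for 4 of 10 genes. Fresh replicate 1 was the highest fresh array for 5 of the 10 genes, against 34.3% of all genes.

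The share of G and C in the promoter windows of the family ran from 50.7% to 78.7%. It was 77.3% for E2f1, 75.3% for E2f7, 66.7% for E2f8, 64.0% for Rbl1 and 50.7% for Rbl2, with a median of 52.7% over all windows. CCAAT, searched on both strands, stood in 5 of the 10 windows, against 37.4% of all.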
